A study of Bos taurus with 6 samples.

Results

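Integrin subunits, laminin chains and other genes of the basement membrane and cell adhesion were followed in bovine granulosa cells after treatment with the PI3K inhibitor LY294002. The members are all probes of the array with exactly 1 gene symbol that begins with ITGA or ITGB or names a laminin chain, together with the probes of NID1, NID2, HSPG2, AGRN, FN1, VTN, TNC, THBS1, THBS2, SPP1 and DAG1. This rule uses names and no measured value, although the member genes were chosen with earlier results of these data known. Shares of members set beside those of the array are therefore a description and no test. The rule found 53 probes of 50 genes, out of 24415 probes in the table and 18010 genes with a probe of their own. LAMA4 has 3 probes and THBS2 has 2, and every other gene has 1. The name rule also takes in ITGB1BP1, ITGB1BP2, ITGB3BP and ITGBL1, which are not integrin subunits.

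Integrins are receptors of 1 alpha and 1 beta chain that span the membrane, bind matrix outside the cell and connect to actin through focal adhesions. Granulosa cells rest on the follicular basal lamina, a basement membrane of laminins, type IV collagen, nidogens and perlecan that they help to build and that keeps blood vessels and leukocytes out of the granulosa layer until ovulation. Integrin ligation is one of the inputs of PI3K, which also acts downstream of the receptors for FSH and IGF1.

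The cells came from abattoir ovaries, from follicles of 2 to 6 mm, and were frozen, thawed and seeded on collagen-coated plastic rather than on the follicular basal lamina. The medium of both groups held R3 IGF1 at 50 ng/mL and FSH at 20 ng/mL. On day 2 they received 50 μM LY294002 or the vehicle DMSO for 2 h in medium without added FSH and IGF1, most of the medium was then exchanged for medium with both hormones, and RNA was taken on day 4. There were 3 samples in each group and 1 array for each sample, and the methods speak of ovaries from different collection days without tying an array to a day, so that the p-values measure only the spread between these arrays. LY294002 is known also to inhibit kinases other than PI3K, such as mTOR, and the arrays hold no other inhibitor.

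Values are RMA log2 signals, so a difference of 1 is a doubling of signal, and n = 3 arrays in each group throughout. The array medians lay between 4.98 and 5.01. The words rose and fell are used where limma's moderated test gave an adjusted p under 0.05 over all 24415 probes and the fold change was at least 1.4. Among the granulosa cell markers, 11 of 12 had a mean signal above that of the median probe, and their mean signal lay between 8.34 and 8.46 on the DMSO arrays and between 8.08 and 8.17 on the LY294002 arrays. The cultures are bulk samples, in which fewer cells of a type and less RNA per cell cannot be told apart.

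Of the 53 member probes, 4 rose and 5 fell with LY294002. Over all probes of the array, 2.58% rose and 3.38% fell. The probes that fell were those of the integrin subunits ITGA9, ITGB3, ITGA4 and ITGA5 and of thrombospondin 1 (THBS1), and those that rose were those of ITGB5, nidogen 2 (NID2), osteopontin (SPP1) and 1 of the 2 probes of thrombospondin 2 (THBS2). A further 5 probes passed the adjusted p but not the fold change, with ITGA3, HSPG2, LAMA1 and the other THBS2 probe higher and DAG1 lower. None of these 5 kept an adjusted p under 0.05 in all 14 alternative fits, and HSPG2 kept it in 11. This makes 14 member probes with an adjusted p under 0.05, against 13.3% of all probes. The LY294002 and DMSO values did not overlap for 25 of the 53 member probes (47.2%), against 32.7% of all probes. The median log2 fold change of the members was 0.04, that of all probes was 0.02, and the members ranged from -1.37 to 1.62.

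All 9 called probes were among the 30 members with a mean signal above that of the median probe (4.99), or 30.0% of them, where 9.66% of all such probes were called. Of the 23 members at or below it, limma called 0, with 0 higher and 1 lower at an unadjusted p under 0.05 and 0 called without moderation of the variances. Of all probes at or below the median, 2.25% were called, so that 0 of 23 is near the share of the array. At an unadjusted p under 0.05, 13.7% of all probes were higher and 13.8% lower, and counts at this p in the groups below are to be read against these shares.

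**Figure D1:**
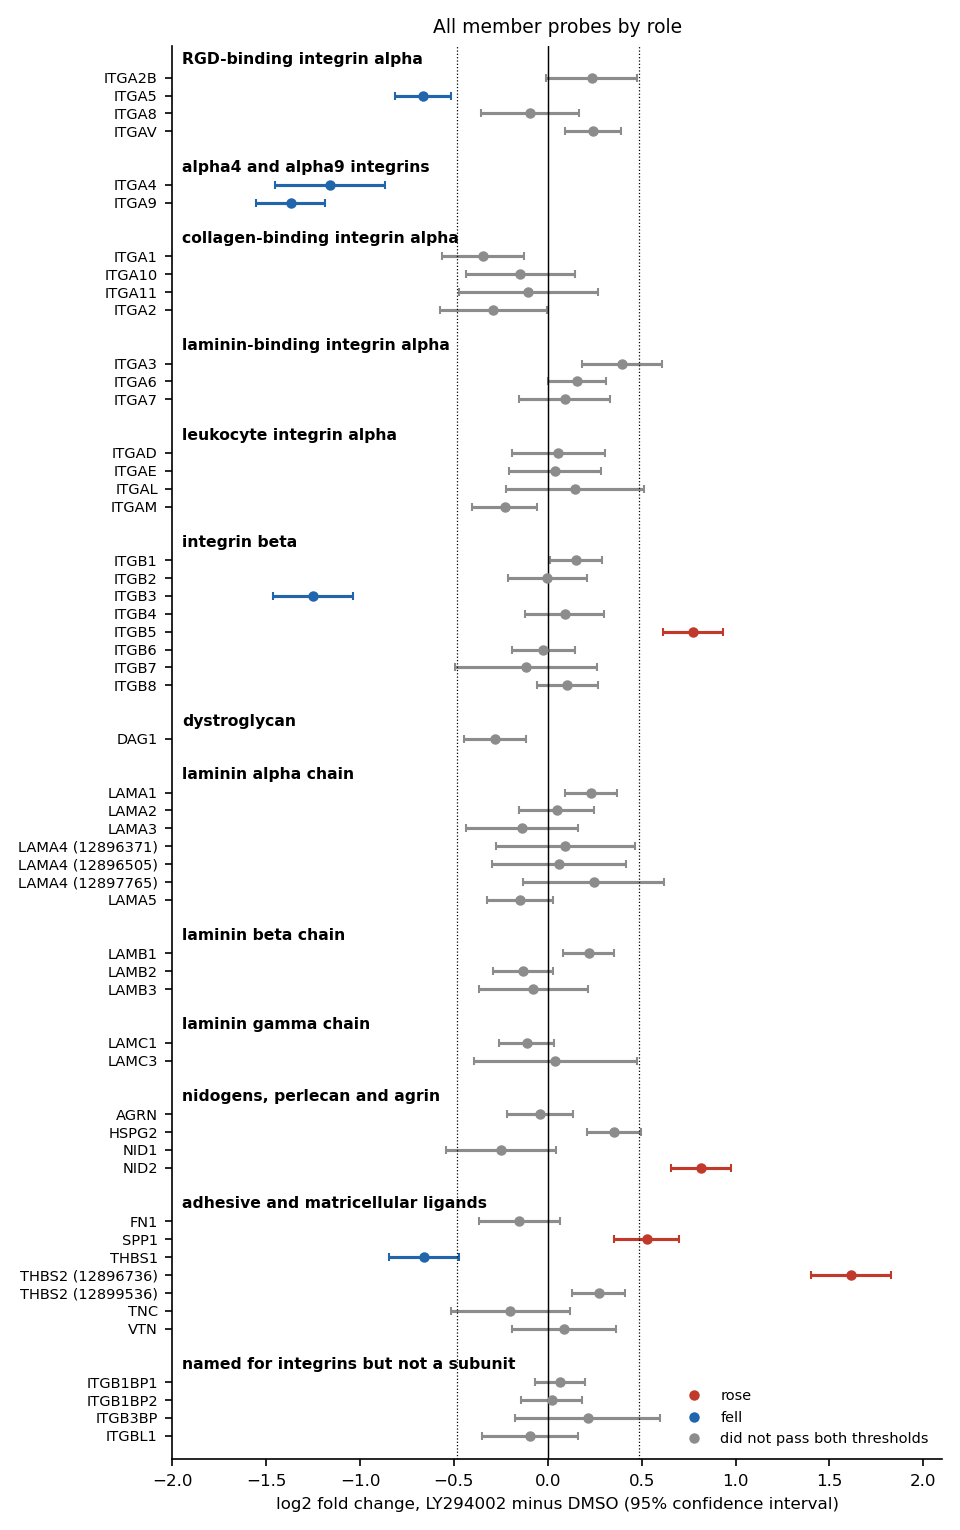
Log2 fold change of each of the 53 member probes (horizontal axis, LY294002 minus DMSO, n = 3 arrays each), ordered by role, with 95% confidence intervals of the moderated fit and dotted lines at a fold change of 1.4. The 9 coloured probes rose or fell, the integrin alpha chains among them all lie to the left of 0, and the laminin chains stay between -0.15 and 0.24.

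Integrin subunits accounted for 25 of the probes. Of the 17 alpha chains 0 rose and 3 fell, and of the 8 beta chains 1 rose and 1 fell. ITGA4 and ITGA9 are close relatives that recognize VCAM1 and osteopontin, and ITGA4 also binds fibronectin while ITGA9 binds tenascin. Signals of ITGA9 were 8.65, 8.44 and 8.48 on the DMSO arrays and 7.20, 7.12 and 7.14 on the LY294002 arrays. The lowest DMSO array thus lay more than 1 log2 unit above the highest LY294002 array. The mean went from 8.52 ± 0.11 to 7.15 ± 0.04 (SD), which is 2.58-fold lower (log2 fold change -1.37, SE 0.08, adjusted p = 0.000392).

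For ITGA4, the DMSO arrays gave 7.37, 7.72 and 7.53 and the LY294002 arrays 6.51, 6.44 and 6.19. The spread within each group was wider than for ITGA9, and the groups were still apart. Its mean fell from 7.54 ± 0.18 to 6.38 ± 0.17, which is 2.23-fold lower (log2 fold change -1.16, SE 0.12, adjusted p = 0.00249). ITGA4 pairs with ITGB1 or ITGB7, and ITGA9 with ITGB1.

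ITGA5 forms the classical fibronectin receptor with ITGB1 and reads the short RGD motif of its ligand, as ITGAV, ITGA8 and ITGA2B do. It had signals of 9.07, 9.14 and 9.10 with DMSO and 8.50, 8.42 and 8.40 with LY294002. Replicates lay within 0.1 of each other in both groups, and ITGA5 fell 1.58-fold (log2 fold change -0.66, SE 0.06, adjusted p = 0.00165). The other RGD-binding alpha chains were not called. ITGAV, which can pair with 5 beta chains, had 11.59, 11.64 and 11.51 with DMSO and 11.82 on each LY294002 array. The groups did not overlap, but the log2 fold change was 0.24 (95% interval 0.09 to 0.39) with an adjusted p of 0.0521. ITGA8 differed by -0.09 with overlapping groups. ITGA2B, the alpha chain of the platelet fibrinogen receptor, differed by 0.23 (adjusted p = 0.198) and stayed below a signal of 4.2 on every array.

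Among the beta chains, ITGB3 and ITGB5 moved in opposite directions. Both pair with ITGAV to bind vitronectin and osteopontin, and ITGB3 also pairs with ITGA2B. ITGB3 gave 8.58, 8.66 and 8.51 on the DMSO arrays and 7.34, 7.46 and 7.19 on the LY294002 arrays. It fell by 1.25 on the log2 scale (SE 0.09, adjusted p = 0.000868), or 2.38-fold, from a mean of 8.58 ± 0.08 to 7.33 ± 0.14. ITGB5 gave 8.05, 8.18 and 8.20 with DMSO and 8.93, 8.89 and 8.93 with LY294002. All LY294002 arrays exceeded all DMSO arrays, and ITGB5 rose 1.71-fold from 8.14 ± 0.08 to 8.92 ± 0.02 (log2 fold change 0.77, SE 0.07, adjusted p = 0.00135).

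The change of these beta chains against each other was also taken within each array, a comparison chosen after their values were seen. The ITGB5 signal minus the ITGB3 signal was between -0.53 and -0.31 on the DMSO arrays and between 1.43 and 1.74 on the LY294002 arrays, a change of 2.03 log2 units. It is a description, with no test of its own. The signals of different probes have no common scale, so the sign of the difference on an array does not tell which chain is more abundant.

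The other beta chains did not pass the thresholds. ITGB1, the common partner of most alpha chains, had 11.05, 11.10 and 11.03 with DMSO and 11.19, 11.22 and 11.22 with LY294002. These values did not overlap, yet the difference was small, at 0.15 (95% interval 0.01 to 0.29, adjusted p = 0.152). ITGB8, a further ITGAV partner, differed by 0.10 and ITGB6, the epithelial one, by -0.02, with ITGB6 near a signal of 2.1 in both groups. ITGB4, the hemidesmosome chain, differed by 0.09, and the leukocyte chains ITGB2 and ITGB7 by 0.00 and -0.12.

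**Figure D2:**
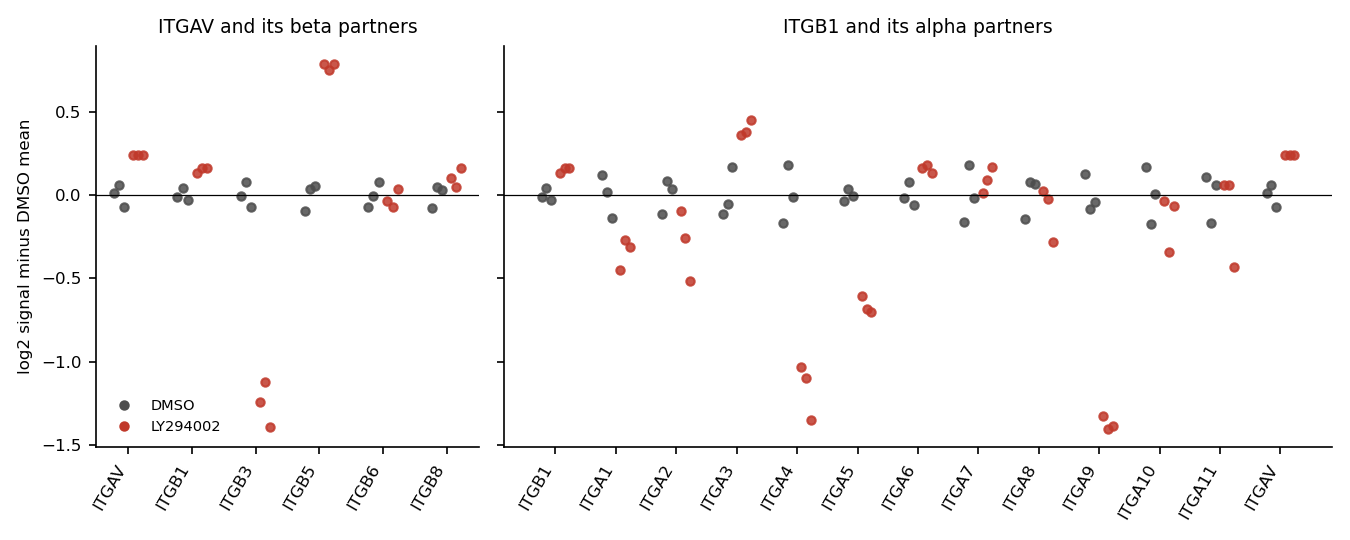
Log2 signal of each array minus the DMSO mean of its probe (vertical axis), with 1 point for each of 3 DMSO (grey) and 3 LY294002 (red) arrays, for ITGAV with its beta partners (left) and ITGB1 with its alpha partners (right). ITGB3 lies at least 1.1 below 0 and ITGB5 near 0.8 above it with LY294002 while ITGAV shifts by 0.24, and on the right ITGA9, ITGA4 and ITGA5 lie lowest while ITGB1 shifts by 0.15.

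For the integrin alpha chains that bind collagen, the coating of the dishes, 0 of 4 were called by limma, with 0 higher and 2 lower at an unadjusted p under 0.05 and 0 called without moderation. All 4 had a log2 fold change below 0, from -0.34 to -0.10. ITGA1, a receptor for type IV collagen, had 6.41, 6.31 and 6.15 with DMSO and 5.84, 6.02 and 5.98 with LY294002. Its groups were apart, with a difference of -0.34 (95% interval -0.56 to -0.12, adjusted p = 0.0555). ITGA2, a receptor mainly of fibrillar collagen, differed by -0.29 (adjusted p = 0.178). The 2 others, ITGA10 and ITGA11, differed by -0.15 and -0.10 with overlapping groups, and ITGA11 was at 0.06 without LY294002 replicate 3.

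The laminin-binding chains had log2 fold changes above 0. For ITGA3, a laminin receptor of basal epithelial cells, signals were 5.80, 5.86 and 6.08 with DMSO and 6.27, 6.29 and 6.36 with LY294002. The groups did not overlap, and the difference of 0.39 (SE 0.09, adjusted p = 0.0333) was a 1.31-fold change, under the fold threshold. ITGA6 differed by 0.16 (adjusted p = 0.179) and ITGA7, the laminin receptor of muscle, by 0.09 (adjusted p = 0.639). Dystroglycan (DAG1), a laminin receptor outside the integrin family, had 11.59, 11.73 and 11.73 with DMSO and 11.45, 11.39 and 11.37 with LY294002. It was lower by less than the fold threshold, with a log2 fold change of -0.28 and an adjusted p of 0.0433 (1.21-fold).

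Among the 4 alpha chains of leukocyte integrins limma called 0, with 0 higher and 1 lower at an unadjusted p under 0.05 and 0 called without moderation. Their signals were at or below 4.7 on every array. ITGAM differed by -0.23 (adjusted p = 0.0909), ITGAL by 0.14, ITGAD by 0.06 and ITGAE by 0.04. These chains, like ITGB2, mark leukocytes rather than granulosa cells.

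Laminins are trimers of an alpha, a beta and a gamma chain and form a polymer at the cell surface on which the basement membrane is built. Of the 12 laminin probes 0 were called by limma, with 2 higher and 0 lower at an unadjusted p under 0.05 and 0 called without moderation. Chains of the classical trimer LAMA1, LAMB1 and LAMC1 gave the following values. LAMA1 had 10.02, 10.09 and 10.07 with DMSO and 10.28, 10.29 and 10.30 with LY294002, a difference of 0.23 (adjusted p = 0.046) and a 1.17-fold change. LAMB1 had 9.69, 9.74 and 9.71 with DMSO and 9.91, 9.96 and 9.92 with LY294002, a difference of 0.22 (95% interval 0.08 to 0.35, adjusted p = 0.055). In both genes every LY294002 array was higher than every DMSO array, by a step that stayed under the fold threshold. The gamma chain LAMC1 differed by -0.11 (95% interval -0.26 to 0.03, adjusted p = 0.298).

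The remaining laminin chains differed by less than 0.25. LAMB2, the beta chain of synaptic and renal laminins, differed by -0.13 and LAMA5, an alpha chain of mature epithelial and vascular basement membranes, by -0.15 (adjusted p = 0.275 and 0.261). LAMA3 and LAMB3, which belong to the laminin of the epidermis, differed by -0.14 and -0.08, and LAMC3 differed by 0.04. LAMA2, the alpha chain of muscle, had signals between 2.33 and 2.58 and differed by 0.05. The 3 probes of LAMA4, an alpha chain of vessels and mesenchymal cells, differed by 0.09, 0.06 and 0.24, all with signals at or below 3.6.

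Nidogens link the laminin polymer to the type IV collagen network, and perlecan (HSPG2) and agrin (AGRN) are heparan sulfate proteoglycans of the same layer. NID2 had 9.46, 9.56 and 9.43 with DMSO and 10.24, 10.33 and 10.33 with LY294002. It rose 1.76-fold from 9.48 ± 0.07 to 10.30 ± 0.05 (log2 fold change 0.82, SE 0.07, adjusted p = 0.00122), and the groups were far apart compared with their spread. Its relative NID1 lay below the median probe, with 4.49, 4.60 and 4.16 with DMSO and 4.21, 4.08 and 4.21 with LY294002, and overlapping groups (-0.25, adjusted p = 0.251). HSPG2 had 7.63, 7.60 and 7.56 with DMSO and 7.98, 7.90 and 7.97 with LY294002. It was higher on every LY294002 array by 0.35 in the mean (SE 0.06, adjusted p = 0.0136), and this 1.28-fold change missed the fold threshold. AGRN differed by -0.04 (adjusted p = 0.769).

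Among the adhesive ligands, the thrombospondins, which are secreted matricellular proteins that bind matrix, integrins and CD36 and are known to restrain blood vessel growth, changed in opposite directions. THBS1 had 11.44, 11.44 and 11.35 with DMSO and 10.73, 10.87 and 10.65 with LY294002. It fell 1.58-fold from 11.41 ± 0.05 to 10.75 ± 0.11 (log2 fold change -0.66, SE 0.08, adjusted p = 0.00365). Both THBS2 probes were higher on every LY294002 array, but by different amounts. Probe 12896736 had 6.99, 6.94 and 7.20 with DMSO and 8.58, 8.72 and 8.68 with LY294002, a rise of 1.62 (SE 0.09, adjusted p = 0.000371) or 3.07-fold. Probe 12899536 had 10.98, 11.08 and 11.03 with DMSO and 11.32, 11.29 and 11.29 with LY294002, a difference of 0.27 (SE 0.06, adjusted p = 0.0314) or 1.21-fold. The size of the THBS2 change therefore depends on the probe, while the direction is shared.

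The change of the first THBS2 probe exceeded that of the second by 1.35 log2 units within arrays, a difference chosen after the values were seen. The first minus the second was between -4.14 and -3.83 on the DMSO arrays and between -2.74 and -2.57 on the LY294002 arrays, and this difference was not tested. What part of the transcript each probe reads was not determined here.

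SPP1, which encodes the RGD-containing phosphoprotein osteopontin, a ligand of ITGAV, ITGA4 and ITGA9 integrins, had 8.99, 9.0 and 9.17 with DMSO and 9.57, 9.56 and 9.61 with LY294002. It rose 1.44-fold from 9.05 ± 0.10 to 9.58 ± 0.03 (log2 fold change 0.53, SE 0.07, adjusted p = 0.00635). Of the called members it is the one nearest to the fold threshold. Fibronectin (FN1), the ligand of ITGA5, had 11.05, 10.98 and 10.80 with DMSO and 10.77, 10.89 and 10.71 with LY294002. These values overlapped, with a difference of -0.15 (95% interval -0.37 to 0.06, adjusted p = 0.339). Tenascin C (TNC), a ligand of ITGA9, differed by -0.20 (adjusted p = 0.398), and vitronectin (VTN), which the liver secretes into plasma, by 0.09 at signals up to 3.31.

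The probes caught by the name rule alone were not called. ITGB1BP1 encodes ICAP1, which binds the ITGB1 tail, and differed by 0.07. ITGB1BP2 (melusin, a muscle protein), ITGB3BP (a centromere protein) and ITGBL1 (a secreted protein related to beta chains) differed by 0.02, 0.21 and -0.09.

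**Figure D3:**
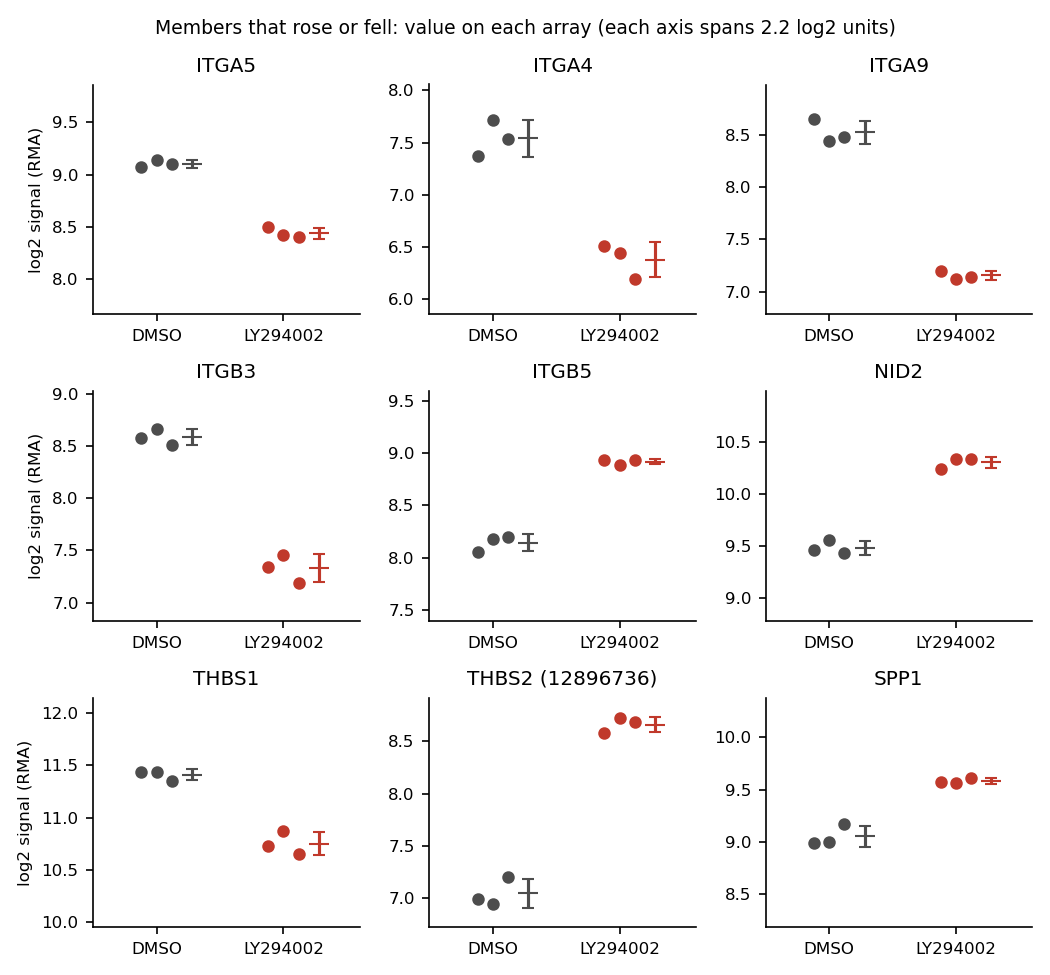
Log2 signal (vertical axes, each spanning 2.2 units) of the 9 member probes that rose or fell, with 1 point for each DMSO (grey) and LY294002 (red) array and the mean ± SD of 3 arrays beside them. In each panel the 2 groups are separate, with the widest gap for THBS2 probe 12896736 and the narrowest for SPP1.

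Other genes of adhesion were read from 3 lists, with the brightest probe of each gene. Their counts are to be read against the 2.58% of all probes that rose and the 3.38% that fell. On the intracellular side, 32 focal adhesion and integrin adaptor genes were measured, of which 1 rose and 0 fell by limma, with 5 higher and 4 lower at an unadjusted p under 0.05 and 1 called without moderation. The one that rose was NEDD9, a scaffold of the Cas family, with 6.37 ± 0.20 in DMSO and 7.07 ± 0.06 in LY294002 (log2 fold change 0.70, SE 0.11, adjusted p = 0.00937). TLN2, which couples integrins to actin, differed by 0.45 (adjusted p = 0.0305), LIMS2, a partner of integrin-linked kinase, by -0.42 (adjusted p = 0.0338) and KANK1, a talin-binding protein, by 0.29 (adjusted p = 0.042), all under the fold threshold. TLN2 passed it, at 0.53, without DMSO replicate 2. The median of the list was 0.02, beside 0.02 for all probes.

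Of 14 other receptors of matrix 1 rose and 2 fell, with a median of -0.01. CD36, a thrombospondin receptor and fatty acid transporter, fell 2.08-fold, from 7.88 ± 0.04 to 6.83 ± 0.19 (log2 fold change -1.05, SE 0.10, adjusted p = 0.00195). DDR1, a collagen receptor kinase, fell by 0.50 (adjusted p = 0.00959). It stood just at the fold threshold and missed it at -0.46 without DMSO replicate 2, at -0.48 without DMSO replicate 3, at -0.47 without LY294002 replicate 3 and at -0.47 after quantile normalization. CD44, the hyaluronan receptor that also binds osteopontin, rose by 0.67 (adjusted p = 0.0117), from 6.96 ± 0.21 to 7.63 ± 0.02. Syndecan 1 (SDC1), a heparan sulfate proteoglycan of the cell surface, differed by -0.39 (adjusted p = 0.0209), under the fold threshold. Syndecan 4 (SDC4) differed the other way, by 0.43 (adjusted p = 0.0274), also under it, and SDC2 and SDC3 by 0.06 and -0.04.

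Among 32 measured genes of other basement membrane and matricellular proteins 2 rose and 5 fell, 6 were called without moderation of the variances, and the median was -0.14. FBLN1 and FBLN5, fibulins that sit at basement membranes and elastic fibres, rose by 1.11 and 0.79 (adjusted p = 0.00124 and 0.00126). POSTN, a matricellular ligand of ITGAV integrins, had 11.35 ± 0.03 in DMSO and 10.60 ± 0.08 in LY294002, a log2 fold change of -0.75 (adjusted p = 0.00151). THBS3, a further thrombospondin, fell by 0.84 (adjusted p = 0.0016). THBS3 thus went the same way as THBS1, and both THBS2 probes the other way, though only the dimmer of them was called. THBS4 differed by 0.02 (adjusted p = 0.941).

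**Figure D4:**
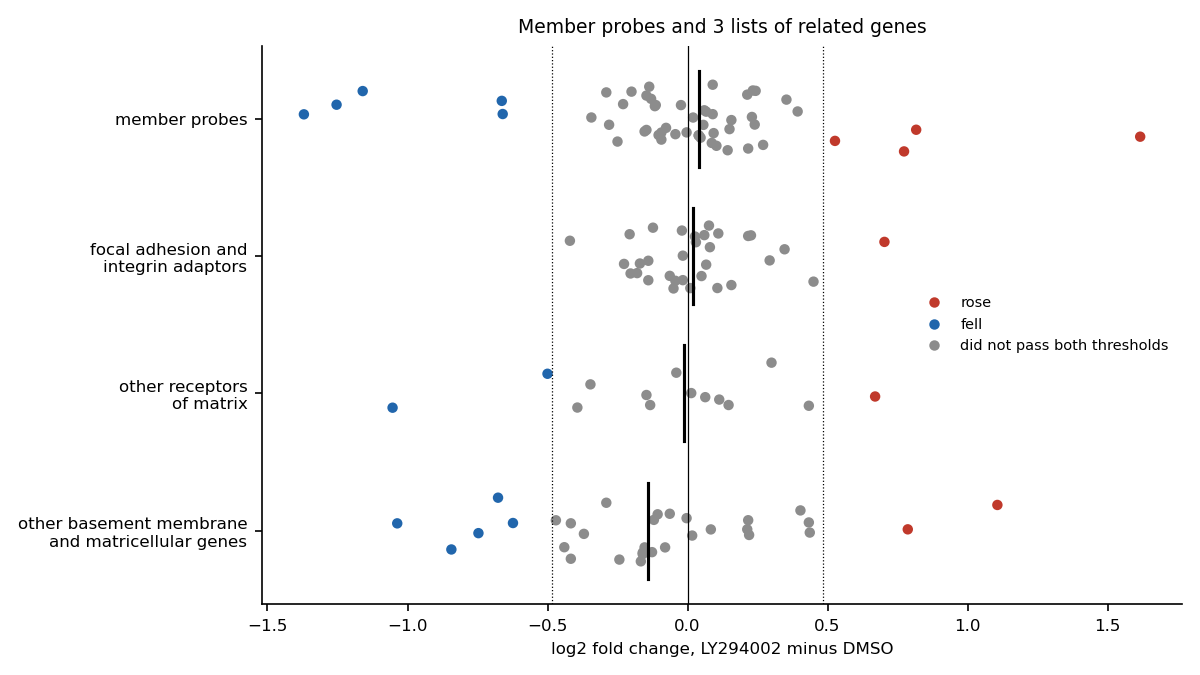
Log2 fold change (horizontal axis, LY294002 minus DMSO) of the 53 member probes and of the genes of 3 related lists with 32, 14 and 32 measured genes, 1 point for each probe, with the median as a black bar and dotted lines at a fold change of 1.4. In the focal adhesion list 1 point passes the thresholds, while the members have 9 and the other basement membrane genes 7.

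Several members are also expressed by other cells of the ovary, and the markers of those cells were read for this reason. Of 8 stroma markers 2 rose, PDGFRA by 0.69 (adjusted p = 0.00117) and COL1A2 by 0.60 (adjusted p = 0.0064), while the other 6 did not, with DCN at -0.29 (adjusted p = 0.0454, under the fold threshold), COL1A1 at -0.17, LUM at -0.05 and COL3A1 at -0.02. The median log2 fold change of the list was -0.04 and its mean signal was 8.19 to 8.20 on the DMSO arrays and 8.27 to 8.30 on the LY294002 arrays. The part of these cells in the higher NID2, THBS2 and ITGB5 signals was not tested. Of 6 measured theca markers TAGLN rose by 0.93 and INSL3 fell by 1.05, CYP17A1, which defines theca cells, averaged 3.02 and 2.98, and the list ranged from 5.48 to 5.60 and from 5.53 to 5.54. Among the 12 granulosa cell markers 1 rose and 4 fell. NR5A2 rose by 1.04, while CYP19A1 fell by 1.97, FOXL2 by 0.75, AMHR2 by 0.72 and AMH by 0.61. The other 7 were not called. FSHR differed by 0.25 (adjusted p = 0.125), FST by 0.01, INHBB by -0.04, INHA and INHBA by -0.05 each and NR5A1 by -0.19 (adjusted p = 0.127). HSD17B1 differed by -0.29 (adjusted p = 0.0495), under the fold threshold. The median log2 fold change of the granulosa list was -0.12. The change of CYP19A1 was larger than that of any member probe. The part of granulosa cells in the lower integrin signals was not tested either.

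Most markers of blood and vessel cells lay below the median probe, with 2 of 15 leukocyte, 1 of 10 platelet and red cell and 2 of 11 endothelial markers above it. Those above were CD68 (5.88 in DMSO and 5.75 in LY294002), CD14 (5.65 and 5.71), GP1BB (5.14 and 5.17), VWF (5.93 and 5.74) and CLDN5 (5.50 and 4.97). The mean signal of 15 leukocyte markers was 3.88 to 4.01 on the DMSO arrays and 3.82 to 3.90 on the LY294002 arrays, and limma called 0 of them (unadjusted p under 0.05: 0 higher, 2 lower, and 0 called without moderation). The 2 lower ones were LAPTM5 at -0.79 (adjusted p = 0.13, overlapping groups) and AIF1 at -0.27 (adjusted p = 0.0895). LAPTM5 had the largest change of this list, from 5.04 ± 0.52 in DMSO to 4.26 ± 0.34 in LY294002. For 10 markers of platelets and red cells the ranges were 3.71 to 3.77 and 3.72 to 3.84, with 0 called, 0 at an unadjusted p under 0.05 and 0 called without moderation. PTPRC, which defines leukocytes, averaged 3.54 and 3.50, and PF4, which defines platelets, 2.86 and 2.84. The 11 endothelial markers had ranges of 3.85 to 4.04 and 3.83 to 4.01, and CLDN5 alone fell (-0.53, adjusted p = 0.0297), a call lost without moderation of the variances. At an unadjusted p under 0.05, 1 of the 11 was higher and 2 were lower. The higher one was FLT1, at 0.52 with groups apart (adjusted p = 0.0856), and the lower ones were CLDN5 and VWF (-0.19, adjusted p = 0.106). Of 6 ovarian surface epithelium markers 0 were called, with 0 higher and 2 lower at an unadjusted p under 0.05 and 0 called without moderation. Those 2 also had an adjusted p under 0.05 and missed the fold threshold, CDH1 at -0.48 (adjusted p = 0.0329, 1.39-fold) and UPK1B at -0.27 (adjusted p = 0.0426), from a DMSO mean of 10.1 for UPK1B. The list had ranges of 5.28 to 5.38 and 5.14 to 5.19. Of 8 oocyte markers 0 were called, 0 had an unadjusted p under 0.05 and 0 were called without moderation, and their mean signal stayed below 3.3 on the arrays of both groups.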

How the data were processed

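RNA of 3 DMSO and 3 LY294002 samples was hybridized by the authors to Bovine Gene 1.0 ST arrays, 1 sample on each array, and the methods name Transcriptome Analysis Console for the analysis. The table deposited by the authors holds RMA log2 signals, and the submitters' processing notes give RMA without a version. RMA brings all arrays to a common distribution and gives 1 value per transcript cluster, called a probe here, so that a change in total RNA per cell is not seen. Of 24415 probes, 18457 have 1 symbol in the platform annotation, 688 have several and 5270 have none. All 6 columns of the table were used, 0 values were missing, and no signal filter was applied. The symbols of the arrays can be old. For 52 of the 53 member probes the gene ID matched the RefSeq table of ARS-UCD2.0, and LAMC3 was named by its platform symbol alone.

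The groups were compared in R 4.3.3 with limma 3.58.1 (lmFit, eBayes) on all probes with the treatment as the only term. The Benjamini-Hochberg adjustment ran over the whole table. A call needed a 1.4-fold change and an adjusted p under 0.05, the methods' thresholds. Intervals are 95% intervals of the moderated fit. The fit was tested on simulated arrays with known changes. Figures were drawn with matplotlib 3.10.9. The member genes, the lists and the tests were chosen with earlier results of these data known. By rule, each called member is given with its 6 values, each other member is named with its change, and up to 4 genes of each related list with the lowest adjusted p are named. The syndecans SDC2, SDC3 and SDC4 and the thrombospondin THBS4 were added beside their relatives. Markers of other cells were named after their values were seen. For genes of the lists the brightest probe was used. Some genes of the basement membrane and theca lists are not reported here. Sequences and coordinates are not used here, since no build of the array was named. Alternatives were other variance estimates, the replicate number as a block, other normalizations, filters and thresholds, array weights, and leaving out each array. The number of arrays limits the precision.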

Additional observations from a re-analysis of the deposited data

How the results depend on the processing

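The 9 calls among the member probes held in all 14 alternative fits: without moderation of the variances, with an intensity trend and robust estimation, with arrays centred or quantile normalized, without the dimmest 25% of probes, among probes with 1 symbol, with array weights, with the replicate block, and without each array in turn. The arrays gave no sign that the replicate numbers pair the samples. Deviations from the group means correlated across all probes with r from -0.0437 to -0.0214 for arrays of the same number. No array correlated best with its own number. Such correlations cannot exclude a weak pairing, and the methods do not tie an array to a collection day. With the replicate number as a block, 4 member probes rose and 5 fell, and these were the same 9 probes. Without each array in turn, the counts stayed at 4 and 5 and the highest adjusted p of a called member was 0.0308, for SPP1. With 2 arrays left in a group, the fit assumes that they vary like the other group. The number of probes called over the whole array went from 1454 to 1252 with the block. The 14 member probes with an adjusted p under 0.05 at any fold change became 9 with the block, 16 without moderation and 19 with the intensity trend, and were 9 to 11 without each array in turn. The adjusted p of the 5 under the fold threshold reached 0.13 for DAG1, 0.0622 for HSPG2, 0.108 for ITGA3, 0.133 for LAMA1 and 0.108 for THBS2 probe 12899536. At any fold change, 8 member probes were higher with an adjusted p under 0.05, and at a fold change of at least 2 there were 1 that rose and 3 that fell. With the brightest probe of each gene, 3 rose, since the probe of THBS2 that rose is the dimmer one.

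Among the member probes that were not called, 14 changed sign when 1 array was left out, and in no other fit. Leaving out each array in turn, their log2 fold changes ranged from -0.188 to 0.06 for ITGA11, from -0.165 to 0.00167 for ITGA8, from -0.015 to 0.145 for ITGAD, from -0.0183 to 0.118 for ITGAE, from -0.0767 to 0.0733 for ITGB2, from -0.06 to 0.015 for ITGB6 and from -0.253 to 0.0267 for ITGB7. The ranges were -0.0233 to 0.0517 for ITGB1BP2, -0.168 to 0.00167 for ITGBL1, -0.0133 to 0.112 for LAMA2, -0.0433 to 0.207 and -0.0417 to 0.213 for LAMA4 probes 12896371 and 12896505, -0.187 to 0.0333 for LAMB3 and -0.137 to 0.142 for LAMC3. The direction of these 14 is not settled by the arrays. Signal over background limits the 23 member probes at or below the median signal, where small changes may not be measurable.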
